A study of Mus musculus with 6 samples.

Results

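The genes described here encode the enzymes of the pyruvate dehydrogenase complex, the tricarboxylic acid (TCA) cycle and mitochondrial fatty acid oxidation. The 40 symbols were listed by their place in these pathways, 23 for pyruvate dehydrogenase and the TCA cycle and 17 for fatty acid oxidation. The list was drawn up with earlier results of these data known. Each gene was then read on its brightest probe, which is a choice by measured signal. All 40 of the 40 had a probe on the array, out of 29752 genes and unnamed transcripts tested, and all 40 entered the test. Their signals were well above background on all 6 arrays. Levels were measured in BV2 cells, an immortalised line of mouse microglia, which are the macrophages resident in brain tissue. Recombinant murine IL-4 (10 ng/ml, 24 hr) was given to the cells of 3 samples, and PBS alone, for the same 24 hr, to those of the other 3. IL-4 is a type 2 cytokine that drives macrophages toward the alternative, or M2, state. Each sample was read on 1 single-colour Agilent array. Both groups are the same line in culture, and such a line stands in for microglia only in part.

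Pyruvate dehydrogenase turns pyruvate from glycolysis into acetyl-CoA, which citrate synthase feeds into the TCA cycle. Fatty acids enter mitochondria through the carnitine shuttle and are shortened there in a repeated sequence of dehydrogenation, hydration, a second dehydrogenation and thiolysis, and each round yields acetyl-CoA for the same cycle. In macrophages, IL-4 is widely described as raising oxidative metabolism and fatty acid oxidation, whereas lipopolysaccharide interrupts the TCA cycle at isocitrate dehydrogenase and succinate dehydrogenase.

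The 3 IL-4 arrays and PBS replicate 1 shared slide 1, and PBS replicates 2 and 3 were on slide 2, per the file headers. Every IL-4 array can therefore be set against only 1 PBS array of its own slide, and for the other two PBS arrays slide and treatment cannot be told apart. The probes that read well above background made up 87.9% to 98% of those on an array, with the lowest shares on IL-4 replicate 1 and PBS replicate 2. Each of these held the first position on its slide. Of 10 microglia and macrophage markers, 9 were measured, all of them well above background on every array. Their summed linear signal, in units of the 75th percentile of each array, was 37.0 to 40.7 with IL-4 and 39.8 to 50.6 with PBS. Among these markers Aif1 (log2 difference -0.72) and Tyrobp (-0.95) were lower with IL-4. With slide as a block both calls were lost, at -0.49 for Aif1 (adjusted p = 0.229, limma) and -0.54 for Tyrobp (adjusted p = 0.221). At an unadjusted p under 0.05, 5 of the 9 markers were lower and 0 higher (limma). Itgam (0.02), Fcer1g (-0.02) and Adgre1 (-0.02) lay near 0, and within slide 1 Adgre1 was 0.28 above PBS replicate 1. The part of the lower markers in the results below was not tested, and in bulk RNA fewer cells of a type and less RNA per cell cannot be told apart. None of 23 tested markers of neurons, astrocytes, oligodendrocytes, fibroblasts and endothelial cells passed the test (limma, 3 lower and 3 higher at an unadjusted p under 0.05). The number of arrays limits the precision throughout.

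Of the 40 members, 3 were lower in IL-4-treated cells, and none was higher. Dlat, which encodes the acetyltransferase core of the pyruvate dehydrogenase complex, fell by 0.87 ± 0.15 (SE) on the log2 scale. The other 2 were Acadl and Acadm, the acyl-CoA dehydrogenases that act on long-chain and medium-chain fatty acids, which fell by 0.52 ± 0.11 and 0.58 ± 0.13. These 3 of 40 members compare with 3.26% of all genes called lower, and the 0 of 40 called higher compare with 1.36% of all genes called higher (limma, 3 arrays per group, Benjamini-Hochberg adjustment over all genes, threshold 0.05). At an unadjusted p under 0.05, 11 members were lower and 5 were higher in the same limma fit, that is 27.5% and 12.5% of members, against 17.7% and 16.8% of all genes. All 3 calls were lost when slide entered the fit as a block, and in each of 5 fits that left out 1 array other than PBS replicate 1. Without PBS replicate 1, 17 members were called lower and 5 higher, beside 23.1% and 19.6% of all genes, and then no PBS array of slide 1 was left. In the other 5 fits 0 to 3 of all genes were called higher and 0 lower.

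**Figure D1:**
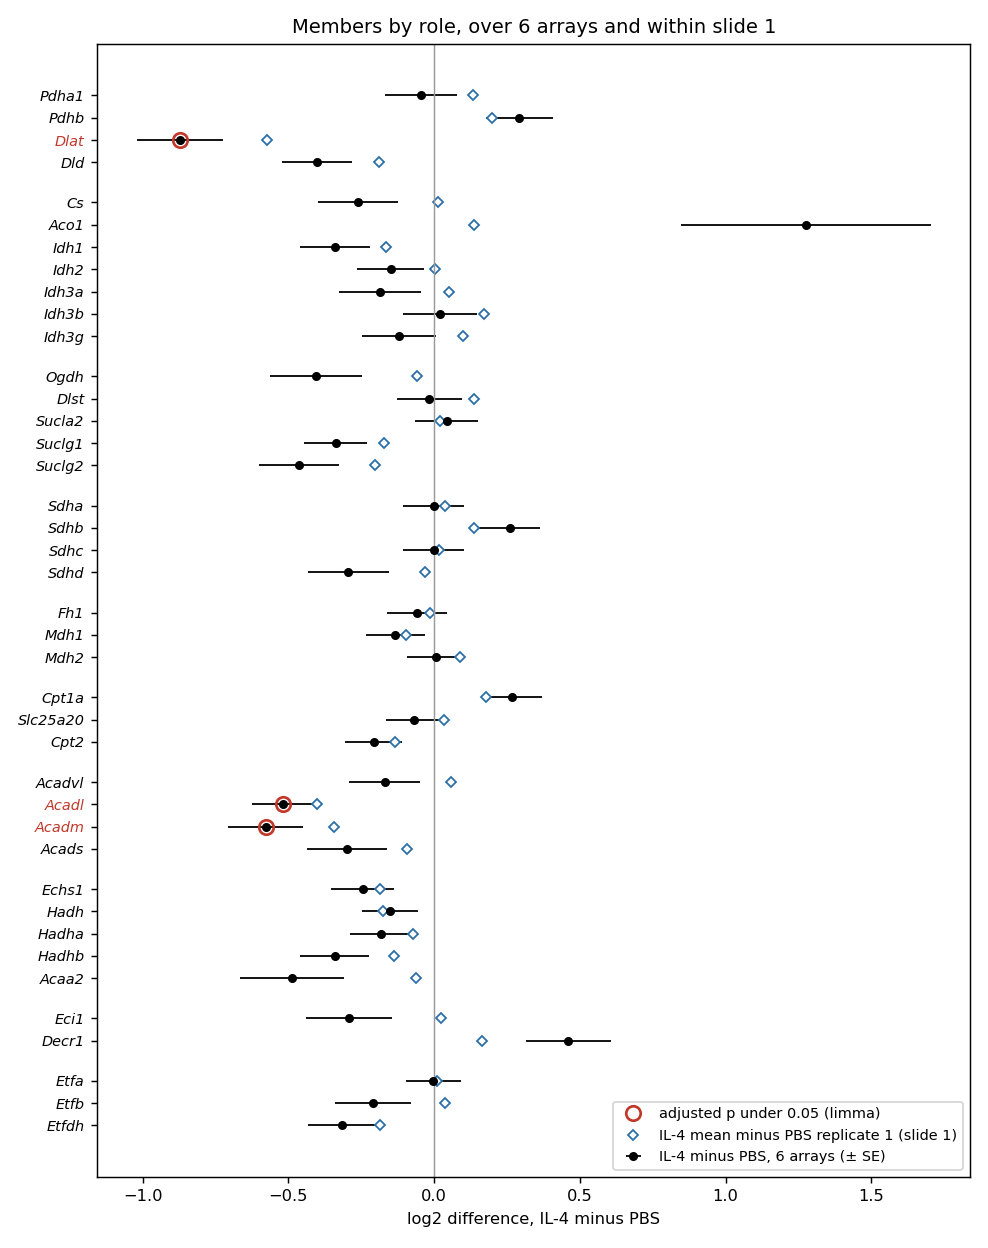
Log2 difference between IL-4 and PBS for the 40 members, grouped by role from pyruvate dehydrogenase (top) to electron transfer (bottom). Black points with bars are the estimate over 6 arrays ± SE, and red rings mark the 3 members with an adjusted p under 0.05 (limma). Blue diamonds are the IL-4 mean minus PBS replicate 1 on slide 1. Of the 40 diamonds, 32 lie nearer 0 than the point of the same gene, a count that was not made over all genes.

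The median log2 difference over the 40 members was -0.17, with 32 of 40 below 0. Over all genes the median was -0.05, with 56.5% below 0. Over the 23 genes of pyruvate dehydrogenase and the TCA cycle the median was -0.12, and over the 17 of fatty acid oxidation it was -0.21, with 15 of 17 below 0. Within slide 1, against PBS replicate 1, these medians were 0.02, with 14 of 23 above 0, and -0.07, with 10 of 17 below 0. Over all 40 members the median within slide 1 was 0.01, with 19 of 40 below 0, beside 0.01 and 48.75% over all genes. PBS replicate 1 itself lay below the mean of PBS replicates 2 and 3 for 33 of 40 members, against 59.8% of all genes. The median of this difference was -0.23 over the members, beside -0.08 over all genes. PBS replicate 1 lay nearer to the mean of the IL-4 arrays than to that of the other PBS arrays for 32 of 40 members. The 8 exceptions were Pdhb, Dlat, Mdh1, Cpt1a, Cpt2, Acadl, Echs1 and Hadh. This count was not made over all genes, so it is not shown to be a trait of these pathways.

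**Figure D2:**
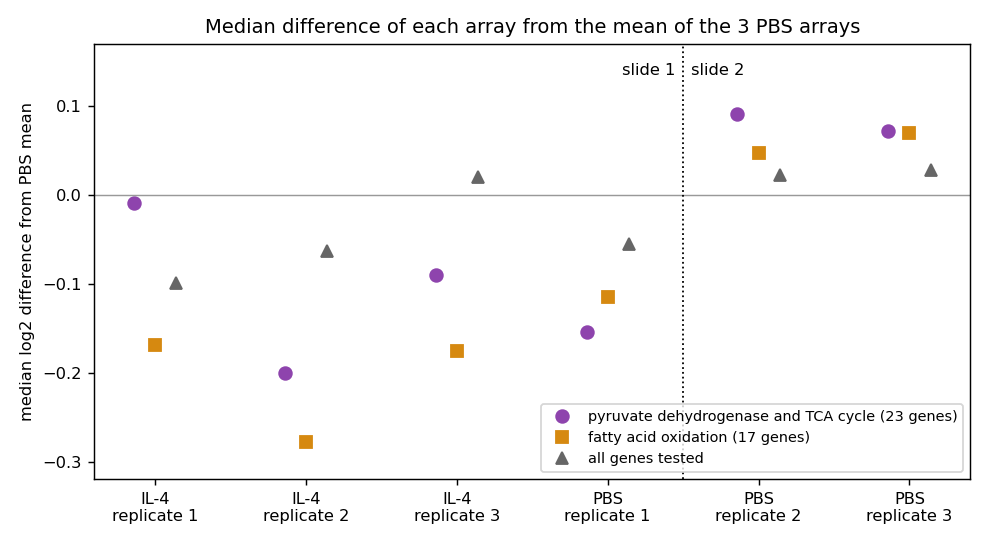
Median log2 difference of each array from the mean of the 3 PBS arrays, for the genes of pyruvate dehydrogenase and the TCA cycle (purple circles), those of fatty acid oxidation (orange squares) and all genes tested (grey triangles). In both gene groups PBS replicate 1 and the IL-4 arrays lie below 0 and PBS replicates 2 and 3 above 0; PBS replicate 1 lies within the IL-4 range for pyruvate dehydrogenase and the TCA cycle, and above all 3 IL-4 arrays for fatty acid oxidation.

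Per array, the median difference of the members from the PBS mean was -0.13, -0.22 and -0.15 on the 3 IL-4 arrays. It was -0.15 on PBS replicate 1, 0.08 on PBS replicate 2 and 0.07 on PBS replicate 3. PBS replicate 1 thus lay inside the range of the IL-4 arrays, while the pair on slide 2 lay above all of slide 1. The IL-4 and PBS values did not overlap for 14 members with IL-4 lower and for 5 with IL-4 higher, against 19.8% and 18.7% of all genes. All 3 IL-4 arrays lay below PBS replicate 1 for 14 of 40 members and above it for 12, against 25.5% and 30.5% of all genes. With slide as a block, 0 of 40 members were called by limma, beside 0.0303% of all genes (9 genes), and 3 members had an unadjusted p under 0.05, namely Dlat, Acadl and Acadm. That share of members, 7.5%, compares with 10.3% of all genes.

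Promoter windows were available for 36 of the 40 members, in all 42 windows of 300 bases, from 250 before to 50 after a start site (RefSeq, GRCm38.p6). Those of the 3 members that fell are shown, together with that of Sdhd, which encodes a membrane anchor of succinate dehydrogenase. The Sdhd window holds 3 of the motifs searched, the shortest of them inside another. Fh1, not shown, was also counted for 3 motifs. The windows are chr1:66863260-66863559 for Acadl, chr3:153944594-153944893 for Acadm, chr9:50659731-50660030 for Dlat and chr9:50603800-50604099 for Sdhd, all on the minus strand and written 5′ to 3′ with motif matches in capitals.
Acadl: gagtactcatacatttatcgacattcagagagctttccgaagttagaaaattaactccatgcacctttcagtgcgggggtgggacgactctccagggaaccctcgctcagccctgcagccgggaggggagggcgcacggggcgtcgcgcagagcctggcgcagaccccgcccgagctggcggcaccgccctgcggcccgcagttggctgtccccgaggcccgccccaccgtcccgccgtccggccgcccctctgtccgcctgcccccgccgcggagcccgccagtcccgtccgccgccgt
Acadm: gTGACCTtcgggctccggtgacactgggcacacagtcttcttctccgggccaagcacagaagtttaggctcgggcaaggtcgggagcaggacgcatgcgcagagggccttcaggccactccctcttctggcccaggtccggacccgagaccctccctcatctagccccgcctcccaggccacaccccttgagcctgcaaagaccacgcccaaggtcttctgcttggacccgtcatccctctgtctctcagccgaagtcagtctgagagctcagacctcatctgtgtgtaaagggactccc
Dlat: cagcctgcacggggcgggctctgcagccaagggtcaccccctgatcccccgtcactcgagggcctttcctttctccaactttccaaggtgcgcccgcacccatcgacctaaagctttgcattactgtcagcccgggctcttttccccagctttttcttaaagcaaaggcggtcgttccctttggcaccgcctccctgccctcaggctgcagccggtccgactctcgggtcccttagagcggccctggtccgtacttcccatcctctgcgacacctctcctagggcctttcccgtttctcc
Sdhd: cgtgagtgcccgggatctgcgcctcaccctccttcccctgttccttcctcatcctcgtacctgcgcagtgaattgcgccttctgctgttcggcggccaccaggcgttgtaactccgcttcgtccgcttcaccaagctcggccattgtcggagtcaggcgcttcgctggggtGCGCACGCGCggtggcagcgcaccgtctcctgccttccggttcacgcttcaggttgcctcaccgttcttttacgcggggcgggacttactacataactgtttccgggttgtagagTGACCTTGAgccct

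The 6 motifs of regulators linked to mitochondrial genes or to IL-4 were searched for on both strands, and a gene was counted if any of its windows held the motif. The NRF1 motif GCGCANGCGC was in 6 of 36 members (16.7%) and in 5.19% of the 27025 genes with a window. It lies at bases 172 to 181 of the Sdhd window, and the other members with it were Dld, Etfb, Etfdh, Sdha and Sucla2. None of the 3 members that fell held it. The ETS family motif CCGGAAGT, bound by GABP, was in 3 members, Cpt2, Dlst and Slc25a20 (8.33%, against 4.31% of all genes). The estrogen-related receptor motif TCAAGGTCA was found only in Sdhd (2.78% of members, against 0.466% of all genes), where it is read on the reverse strand at bases 287 to 295. The shorter nuclear receptor motif AGGTCA, which that motif contains, was in 10 members (27.8%, against 18.1%). Acadm was among the 10, with the capitals at bases 2 to 7 reading the motif on the reverse strand. The motif TTCNNNNGAA of STAT6, the factor that IL-4 activates, was in 2 members, Fh1 and Idh3b (5.56%, against 8.01%). The NF-Y motif CCAAT was in 17 members (47.2%, against 41.1%). No window of Acadl or Dlat held any of the 6 motifs. These counts describe letters in the windows, since no binding was measured.

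Of the 4 members that belong to the pyruvate dehydrogenase complex, Dlat fell and the others did not pass the test. Log2 signals are given on a scale whose 0 is the 75th percentile of the array. Dlat read -2.88, -2.68 and -2.70 with IL-4 and -2.18, -1.78 and -1.68 with PBS, for replicates 1, 2 and 3 in each group. All IL-4 arrays lay below all PBS arrays, and PBS replicate 1 was the lowest of the controls. The difference was -0.87 ± 0.15 (SE), or 1.83-fold lower, with an adjusted p of 0.033 (limma, 3 arrays per group). Within slide 1 the IL-4 mean was 0.57 below PBS replicate 1, a log2 difference of -0.57. With slide as a block the 95% interval of this difference was -0.88 to -0.27, and the adjusted p was 0.208 (range over all alternatives 0.000738 to 0.377). Over all the alternatives tried, the difference in Dlat ranged from -1.02 to -0.57. Pdha1, the alpha subunit of the E1 component, had a difference of -0.04, and Pdhb, the beta subunit, one of 0.29 (adjusted p = 0.118). Dld, the E3 dehydrogenase that this complex shares with 2-oxoglutarate dehydrogenase, had a difference of -0.40 (adjusted p = 0.069), and its second probe gave -0.24. These 4 members thus gave estimates on both sides of 0, of which only that of Dlat passed the test. Pdhx, a subunit outside the 40 members, had a difference of -0.16 (adjusted p = 0.268, limma) and -0.13 within slide 1.

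No gene of the steps from citrate to 2-oxoglutarate passed the test (limma, 1 lower and 1 higher at an unadjusted p under 0.05), and 5 of 7 had differences below 0. Cs, citrate synthase, read 3.59, 3.42 and 3.49 with IL-4 and 3.49, 3.93 and 3.87 with PBS. The groups overlapped, because PBS replicate 1 lay level with the IL-4 arrays. The difference was -0.26 ± 0.14 over 6 arrays (adjusted p = 0.208, limma) and 0.01 within slide 1. Aco1, the cytosolic aconitase that doubles as an iron-responsive RNA-binding protein, had the largest difference among the members, 1.28 ± 0.43. It read -2.24, -2.32 and -2.07 with IL-4 and -2.35, -4.30 and -3.81 with PBS. All IL-4 arrays were above all PBS arrays, PBS replicate 1 by a narrow margin, and PBS replicates 2 and 3 were far lower. Its adjusted p was 0.085, and within slide 1 the difference was 0.14. Idh1, the cytosolic NADP-dependent isocitrate dehydrogenase, had a difference of -0.34 (adjusted p = 0.095) and its mitochondrial counterpart Idh2 one of -0.15. The 3 subunits of the NAD-dependent enzyme, Idh3a, Idh3b and Idh3g, had differences of -0.19, 0.02 and -0.12. Within slide 1, 6 of these 7 genes were above 0, from 0.002 for Idh2 to 0.17 for Idh3b, and only Idh1, at -0.16, was below.

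**Figure D3:**
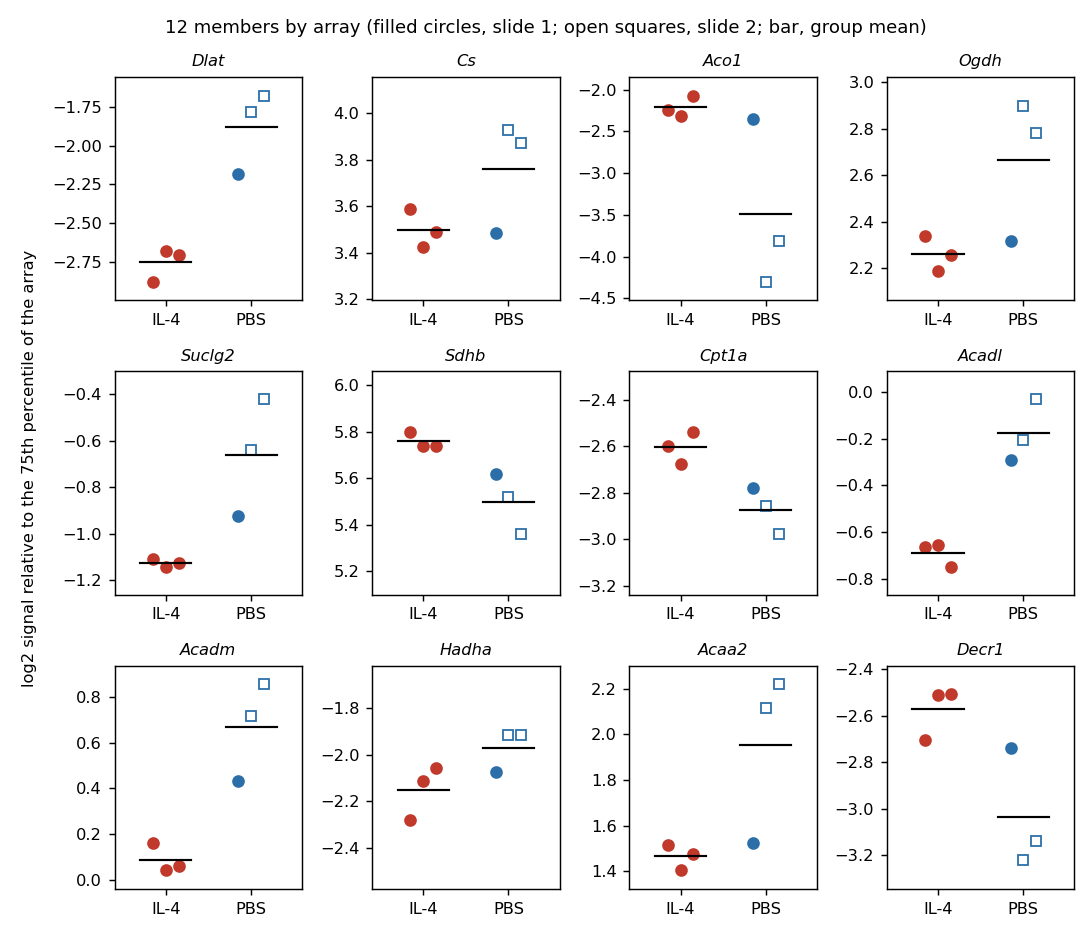
Scaled log2 signal (array 75th percentile at 0) for 12 members, each in its own panel and scale, with IL-4 (red) and PBS (blue). Filled circles are arrays of slide 1, open squares those of slide 2 and bars the group means. The IL-4 and PBS arrays do not overlap in any panel but those of Cs, Ogdh and Hadha. Over all genes, 19.8% did not overlap with IL-4 lower and 18.7% with IL-4 higher. In Cs, Aco1, Ogdh and Acaa2 the slide 1 PBS array lies with or next to the IL-4 arrays.

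The steps from 2-oxoglutarate to succinate gave 4 of 5 differences below 0, none of which passed the test (limma, 3 lower at an unadjusted p under 0.05). Suclg2, the beta subunit of the GTP-forming succinyl-CoA ligase, read -1.11, -1.14 and -1.12 with IL-4 and -0.92, -0.64 and -0.42 with PBS. The IL-4 arrays lay close together and below all 3 PBS arrays. The difference was -0.46 ± 0.14 (adjusted p = 0.067, limma), the smallest adjusted p among the members that did not pass, and -0.20 within slide 1. Suclg1, the alpha subunit that both forms of the ligase share, had a difference of -0.34 (adjusted p = 0.078) and -0.17 within slide 1. Sucla2, the ATP-forming beta subunit, had one of 0.04, so the 2 beta subunits had differences of unlike size. Ogdh, the E1 component of 2-oxoglutarate dehydrogenase, read 2.34, 2.19 and 2.26 with IL-4 and 2.32, 2.90 and 2.78 with PBS on its brightest probe. PBS replicate 1 lay among the IL-4 arrays, and the difference of -0.41 ± 0.16 over 6 arrays (adjusted p = 0.115) was -0.06 within slide 1. Dlst, its E2 component, had a difference of -0.02.

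Succinate dehydrogenase, the enzyme that links the cycle to the respiratory chain, had no subunit that passed the test (limma, 1 of 4 higher at an unadjusted p under 0.05). Sdhb, the iron-sulfur subunit, read 5.80, 5.74 and 5.74 with IL-4 and 5.62, 5.52 and 5.36 with PBS. All IL-4 arrays were above all PBS arrays, by 0.26 ± 0.11 on average (adjusted p = 0.129, limma), and the IL-4 mean was 0.14 above PBS replicate 1. Sdha, the flavoprotein subunit, and Sdhc, a membrane anchor, had differences of -0.002 and -0.001. For both, the 95% interval reached from -0.25 or -0.24 to 0.24, so differences within that range are compatible with these probes. A second Sdhc probe gave -0.42, outside that range. Sdhd had a difference of -0.29 (adjusted p = 0.171) and -0.03 within slide 1. The last steps of the cycle gave Fh1, fumarase, at -0.06, Mdh1, the cytosolic malate dehydrogenase, at -0.13, and Mdh2, the mitochondrial one, at 0.01, and none passed the test. For Mdh1 all IL-4 arrays were below all PBS arrays, and the difference within slide 1 was -0.10.

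In fatty acid oxidation the members that fell act at the first dehydrogenation step. All 4 acyl-CoA dehydrogenases had differences below 0, with a median of -0.41, and 2 of the 4 fell. Acadl read -0.67, -0.66 and -0.75 with IL-4 and -0.29, -0.20 and -0.03 with PBS. The groups did not overlap, and PBS replicate 1 stood with the other PBS arrays rather than with IL-4. The difference was -0.52 ± 0.11 (SE), or 1.43-fold lower, with an adjusted p of 0.046 (limma, 3 arrays per group). Within slide 1 it was -0.40, and with slide as a block its 95% interval was -0.69 to -0.11 (adjusted p = 0.335, range over all alternatives 0.00449 to 0.386). Over the alternatives tried it stayed between -0.57 and -0.40.

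Acadm read 0.16, 0.04 and 0.06 with IL-4 and 0.43, 0.71 and 0.85 with PBS. The IL-4 arrays lay below every PBS array, and PBS replicate 1 lay between the IL-4 arrays and the slide 2 pair. The difference was -0.58 ± 0.13, or 1.49-fold lower, with an adjusted p of 0.049 (limma), just inside the threshold. It was 0.052 when only the brightest probe of each gene entered the fit. Within slide 1 the difference was -0.34, and its 95% interval with slide as a block was -0.62 to -0.06 (adjusted p = 0.387, range over all alternatives 0.00207 to 0.449). The very-long-chain enzyme Acadvl had a difference of -0.17 (adjusted p = 0.341) that was 0.06 within slide 1. The short-chain enzyme Acads had one of -0.30 (adjusted p = 0.165), and -0.09 within slide 1.

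The 5 genes of hydration, the second dehydrogenation and thiolysis were all below 0, both over 6 arrays (-0.49 to -0.15) and within slide 1 (-0.18 to -0.06), and none passed the test (limma, 2 lower at an unadjusted p under 0.05). Hadha, the alpha subunit of the trifunctional protein, which carries the hydratase and dehydrogenase activities for long chains, read -2.28, -2.11 and -2.06 with IL-4 and -2.08, -1.91 and -1.92 with PBS. The groups overlapped slightly, since IL-4 replicate 3 was above PBS replicate 1. The difference was -0.18 ± 0.11 (adjusted p = 0.260, limma) and -0.07 within slide 1. Hadhb, its beta subunit with the thiolase activity, had a difference of -0.34 (adjusted p = 0.092). Acaa2, the mitochondrial thiolase for shorter chains, was measured by a probe with 10 copies on the array. It read 1.51, 1.40 and 1.48 with IL-4 and 1.53, 2.12 and 2.22 with PBS. PBS replicate 1 stood just above the IL-4 arrays, and the difference of -0.49 ± 0.18 over 6 arrays (adjusted p = 0.102) was -0.06 within slide 1. Log2 values of its copies on the same array varied with an SD of 0.07 to 0.09, which is spot noise and not the spread between samples. PBS replicate 1 differed from the mean of PBS replicates 2 and 3 by -0.64. Echs1, the short-chain enoyl-CoA hydratase, had a difference of -0.24 and Hadh, the dehydrogenase for medium and short chains, one of -0.15, and within slide 1 these were -0.18 and -0.17.

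Entry of fatty acids and the auxiliary steps gave mixed directions. Cpt1a, the outer-membrane carnitine palmitoyltransferase that sets the rate of entry, read -2.60, -2.68 and -2.54 with IL-4 and -2.78, -2.86 and -2.98 with PBS on its brightest probe. All IL-4 arrays were above all PBS arrays, by 0.27 ± 0.10 (adjusted p = 0.112, limma), and the IL-4 mean was 0.18 above PBS replicate 1. Slc25a20, the carnitine-acylcarnitine carrier, had a difference of -0.07 and Cpt2, the inner-membrane transferase, one of -0.21 (adjusted p = 0.168). Decr1, the dienoyl-CoA reductase needed for polyunsaturated fatty acids, read -2.70, -2.51 and -2.51 with IL-4 and -2.74, -3.22 and -3.14 with PBS. Its IL-4 arrays were all above its PBS arrays, IL-4 replicate 1 and PBS replicate 1 nearly meeting. The difference was 0.46 ± 0.15 (adjusted p = 0.077) and 0.17 within slide 1. Eci1, the isomerase for unsaturated chains, had a difference of -0.29 over 6 arrays and 0.02 within slide 1. The electron acceptors of the acyl-CoA dehydrogenases gave Etfa at -0.002, Etfb at -0.21 and Etfdh, which passes the electrons to ubiquinone, at -0.32 (adjusted p = 0.104), and none passed the test.

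Different probes of a gene did not always give the same answer. More than 1 tested probe was available for 8 members, 5 of the 8 with the same sign on all of them, and for Cpt1a and Ogdh the probes differed by more than 0.5. The second Cpt1a probe, printed in 10 copies, read -3.49, -3.40 and -3.39 with IL-4 and -3.00, -2.66 and -2.51 with PBS. It was lower on every IL-4 array than on every PBS array, the reverse of the brightest probe. Its difference was -0.70 ± 0.14 over 6 arrays (adjusted p = 0.045 over all tested probes, limma) and -0.42 within slide 1. With the probes opposed, the direction of Cpt1a is not settled by these arrays. Of the other two Ogdh probes, 1 gave 0.18 ± 0.12 and the other gave 0.25 ± 0.11, against -0.41 on the brightest. The second Sdhb probe gave -0.07 ± 0.10, and that of Sdhc gave -0.42 ± 0.13 (adjusted p = 0.071 over all tested probes), against -0.001 on the brightest. Dld, Cpt2, Pdhb and Etfa each had a second probe of the same sign, and their probes differed by 0.04 to 0.16.

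**Figure D4:**
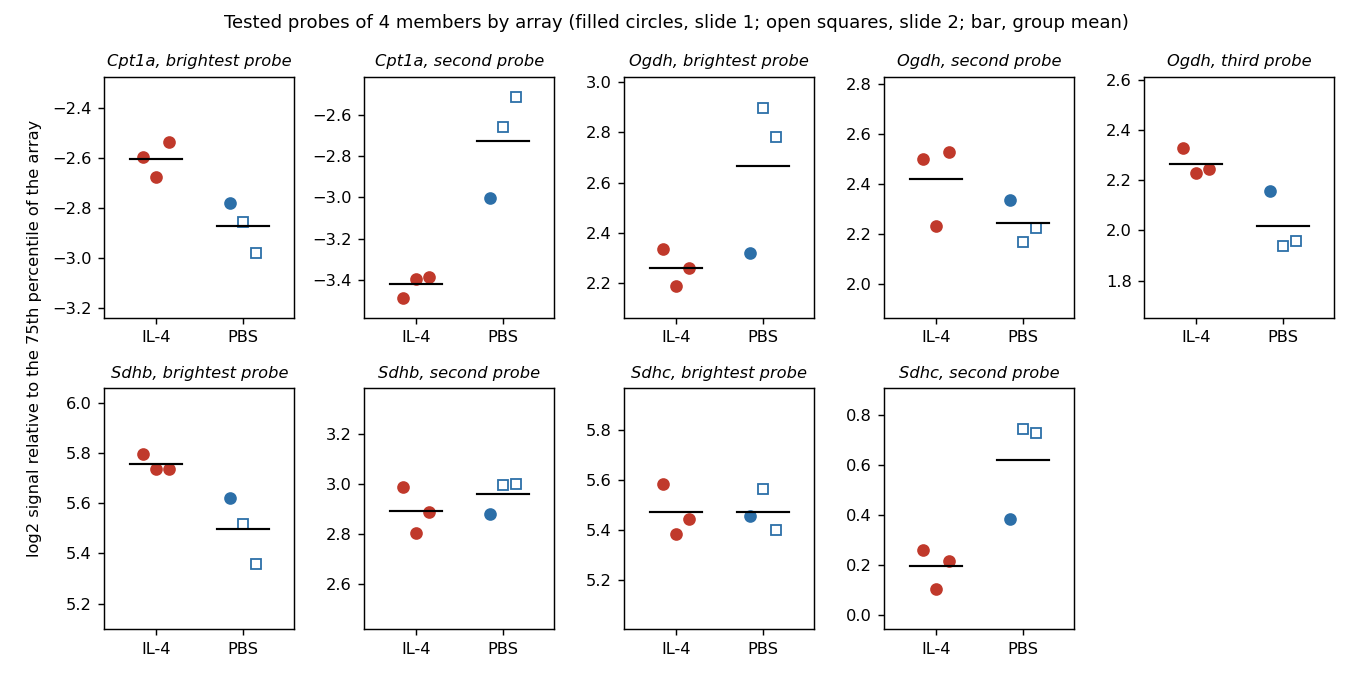
Scaled log2 signal (array 75th percentile at 0) on every tested probe of Cpt1a, Ogdh, Sdhb and Sdhc, with IL-4 (red), PBS (blue), slide 1 (filled circles), slide 2 (open squares) and group means (bars). The 2 Cpt1a probes separate the groups in opposite directions, and the brightest Ogdh probe lies apart from the other two in that its slide 2 arrays are high.

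A further 92 genes around these pathways were examined, of which 90 were tested: 4 were lower and 1 was higher with IL-4. These shares, 4.44% and 1.11%, were near the 3.26% and 1.36% of all genes. Their median difference was -0.16 over 6 arrays and -0.04 within slide 1. Of these, Ivd and Mlycd encode enzymes close to fatty acid oxidation. Ivd, the isovaleryl-CoA dehydrogenase of leucine breakdown, read -0.45, -0.60 and -0.44 with IL-4 and 0.03, 0.37 and 0.29 with PBS, and fell by 0.73 ± 0.12 (adjusted p = 0.033, limma). Mlycd, the malonyl-CoA decarboxylase that removes the inhibitor of CPT1, read -0.49, -0.46 and -0.28 with IL-4 and 0.10, 0.35 and 0.43 with PBS, and fell by 0.70 ± 0.12 (adjusted p = 0.034). In both, PBS replicate 1 was above every IL-4 array, and the difference within slide 1 was -0.53 for Ivd and -0.51 for Mlycd.

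In fatty acid supply and storage, Lpl, the lipoprotein lipase, fell by 0.56 ± 0.12 (adjusted p = 0.047) and Dgat1, which makes triglyceride, fell by 0.68 ± 0.14 (adjusted p = 0.045). Slc27a1, a fatty acid transport protein, was the 1 called higher, at 1.12 ± 0.25 (adjusted p = 0.049, and 0.052 with the brightest probes alone in the fit). It read 2.47, 2.25 and 2.30 with IL-4 and 1.83, 1.09 and 0.73 with PBS, all IL-4 arrays being the higher, and the difference was 0.51 within slide 1. With slide as a block none of the 90 genes was called by limma, and 16 had an unadjusted p under 0.05, or 17.8% against 10.3% of all genes. All 5 calls were also lost in each fit that left out 1 array other than PBS replicate 1. None of the 15 transcriptional regulators and mitochondrial control genes passed the test (limma, 5 lower and 4 higher at an unadjusted p under 0.05). Ppargc1b, the coactivator PGC-1beta described in IL-4-treated macrophages, had a difference of -0.32 (adjusted p = 0.086) and -0.21 within slide 1.

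Of the genes on branches of the cycle, Acod1, which makes itaconate from cis-aconitate, had a difference of -0.50 ± 0.16 (adjusted p = 0.081) and -0.24 within slide 1. Of the kinases that switch off pyruvate dehydrogenase, Pdk1 and Pdk4 had differences of -0.20 (adjusted p = 0.418, limma) and -0.33 (adjusted p = 0.363). Pdk3 had one of -0.15 (adjusted p = 0.420). Pdk2 went the other way, at 0.29 (adjusted p = 0.086), with all its IL-4 arrays above all its PBS arrays. Within slide 1 the differences were 0.12 for Pdk1, 0.23 for Pdk2, 0.07 for Pdk3 and -0.08 for Pdk4. Acsl1, which activates long-chain fatty acids to acyl-CoA, had one of -0.25 (adjusted p = 0.180). None of these genes passed the test.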

How the data were processed

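RNA of 6 BV2 samples, 3 with IL-4 and 3 with PBS, was hybridised to 1 Cy3 array each. The authors deposited scanner files of spot intensity on a linear scale, made with Agilent Feature Extraction 11.0.1.1, background subtracted and detrended within the array, per the file headers. They also deposited a value table, whose values fit a log2 scale with equal column medians (6.92). The sources used here do not state its normalization. It served as an alternative. The design text calls the control untreated, and the sample labels say PBS. A description field mentioning human blood was not used. Nothing in the labels says that samples within a group were separate cultures, so a p-value here measures spread between arrays, which may be technical. In the fit with no block, that spread includes any difference between the slides among the PBS arrays.

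Control spots and outlier flags were left out (87 to 394 spots per array), copies of a probe were averaged, and log2 processed signal was set relative to the 75th percentile of each array. A probe was tested if all arrays of either group read it well above background (35979 probes). Accessions matched to RefSeq (GRCm38.p6) named 27234 of 39429 probes (69.1%), and each gene was represented by its brightest tested probe. IL-4 was compared with PBS in limma 3.58.1 (lmFit, eBayes) in R 4.3.3, fitted over all tested probes with no block and with Benjamini-Hochberg adjustment over 29752 genes and transcripts. The fit was run on simulated data with independent noise and no slide effect, so that run does not bear on the slide layout here. Values in every sample were given for members called in any of 3 fits (6 arrays, slide as a block, slide 1), the 8 largest differences, and Cs, Sdhb, Cpt1a and Hadha. In the wider list, up to 12 called genes and Acod1, Pdk1, Pdk4, Ppargc1b and Acsl1 were named, and 1 further gene of that rule is not reported here. Members and lists were chosen with earlier results of these data known. Nnt and Ehhadh of the wider list were not tested, the marker Cd68 had no matched probe, and Mut was matched as Mmut. Alternatives were other scalings, normexp (on the median signal, as the files used hold no mean signal column), other probe filters and summaries, slide or replicate number as a block, slide 1 alone, and fits without 1 array.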

Additional observations from a re-analysis of the deposited data

How the results depend on the processing

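Of the settings tried, Dlat, Acadl and Acadm stayed below 0 in all 21 settings, the reported one included, and their calls did not. Members that were not called, among them Hadha, Hadh, Mdh1 and Sdhd, also stayed below 0 in all 21. The settings share the same arrays on which the 3 were called, so a stable sign is no separate evidence. Members called lower, then higher, were 3 and 0 as reported, 4 and 0 with quantile normalization, 3 and 0 scaled to the median, 1 and 0 with the percentile over probes above background everywhere or with the mean of the probes of a gene, 4 and 0 in the authors' table or with only such probes tested, and 0 and 0 with no filter on dim probes, slide as a block or slide 1 alone. Normexp, fits on the brightest probes alone and fits without the first-position arrays were chosen after seeing the data. They gave 8 and 1 (normexp, 75th percentile), 8 and 0 (normexp, quantile), 2 and 0, and 0 and 0. Genes of the wider list, 4 and 1 as reported, were 18 and 5, 5 and 2, 2 and 0 (percentile or probe mean), 16 and 4, 16 and 8, 0 and 0, 17 and 8, 17 and 6, 4 and 0, and 0 and 0 under the same settings in that order. Leaving out 1 array gave 0 to 17 members lower and 0 to 5 higher, 0 to 35 and 0 to 13 genes of the wider list, and member medians of -0.239 to -0.134. All the upper counts were without PBS replicate 1. The member median, -0.175, was -0.215 to -0.129 under the other scalings and filters, 0.00619 with slide as a block and 0.012 on slide 1 alone. The cause was not tested.

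Over all genes, 404 were called higher and 971 lower as reported. The counts were 1213 and 2143 with quantile normalization, 616 and 1324 scaled to the median, 124 and 455 over probes well above background, 898 and 1839 in the authors' table, 2262 and 2192 with normexp and the percentile, and 1293 and 2382 with normexp and quantile. They were 5 and 10 with no filter, 2021 and 2132 with only probes well above background, 117 and 488 with the probe mean, 240 and 757 on the brightest probes alone, 6 and 3 with slide as a block, 1 and 2 on slide 1, and 0 and 0 without the first-position arrays. Without PBS replicate 1 they were 5814 and 6864, and 0 to 3 and 0 without any other array.

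With a replicate block, 3 members were called lower and 0 higher, 11 and 5 genes of the wider list, and 1860 and 2086 of all genes. The labels do not pair the samples. The correlations of same-numbered arrays, each taken about its group mean, were 0.083, -0.0155 and 0.296. With 3 arrays per group these values cannot settle whether samples were paired.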
